A study of Drosophila melanogaster with 6 samples.

Results

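Odorant binding protein genes were followed in heads of adult male fruit flies (Drosophila melanogaster) that carry or lack the microRNA miR-14. Members were taken by name alone: genes with a single-symbol probe set whose symbol begins with Obp and a digit, or is lush. This gave 48 of the 11982 genes named on the Affymetrix array, each read through its brightest probe set. The study has 3 groups with 2 arrays each, labelled as biological replicates, all from heads of males aged 5 days. Control flies were labelled wild-type, mutant flies were homozygous for a dme-miR-14 mutation, and rescue flies were the same homozygous mutants that express the microRNA again in insulin-producing cells (IPCs), brain neurons that secrete insulin-like peptides. The driver of that expression, the strains and the number of heads per array were not given in the sources used here. A difference between groups, including one seen in the rescue alone, therefore cannot be told apart from a difference of strain or transgene. As stated in the design, the question was which genes rise when miR-14 is lost and return, or fall, when it is put back in these cells. Nothing in the labels says how separately the replicates were raised, so p-values measure only the spread between these arrays.

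Odorant binding proteins are small secreted proteins that bind odours, pheromones and other greasy molecules. In the antenna they are made by support cells and fill the fluid that bathes the dendrites of smell neurons, where LUSH, the product of lush, is needed for the response to the male pheromone cis-vaccenyl acetate. Others are made in taste bristles, fat body, glia or the male reproductive tract, so the family name does not tell where a gene acts. Classes are told apart by their conserved cysteines, with a Minus-C class that has lost some and a Plus-C class that has gained some.

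The values are RMA intensities, which the authors summarised per probe set and normalized between arrays. They have no detection call, and levels of different genes cannot be set against each other because each probe set has its own affinity. The control probe sets of the bacterial TrpnX sequence read from 6.1 to 10.1, and the lower quartile of all probe sets was 21.2, so members below about that level may lie at the floor and their changes may be understated. Having 2 arrays per group limits the precision throughout. Among photoreceptor markers, 4 of 7 were measured, with Arr1 from 11813.5 to 13255.9 and Arr2 from 15675.4 to 16778.3. The other markers measured, trp and inaD, were lower in rescue than in control (-0.52 ± 0.080, adjusted p = 0.00905, and -0.47 ± 0.081, adjusted p = 0.014), and inaD also than in mutant heads (-0.57 ± 0.081, adjusted p = 0.0247). Their part in the results on rescue heads was not tested. A measure of RNA quality is how bright the 5' actin control is relative to the 3' one, and this ratio was 0.306 and 0.138 on control arrays, 0.205 and 0.335 on mutant arrays and 0.37 and 0.45 on rescue arrays. It was thus lowest on control replicate 2 and highest on the rescue arrays. Heads are mixtures of cells, so fewer cells of a type and less RNA per cell cannot be told apart.

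**Figure D1:**
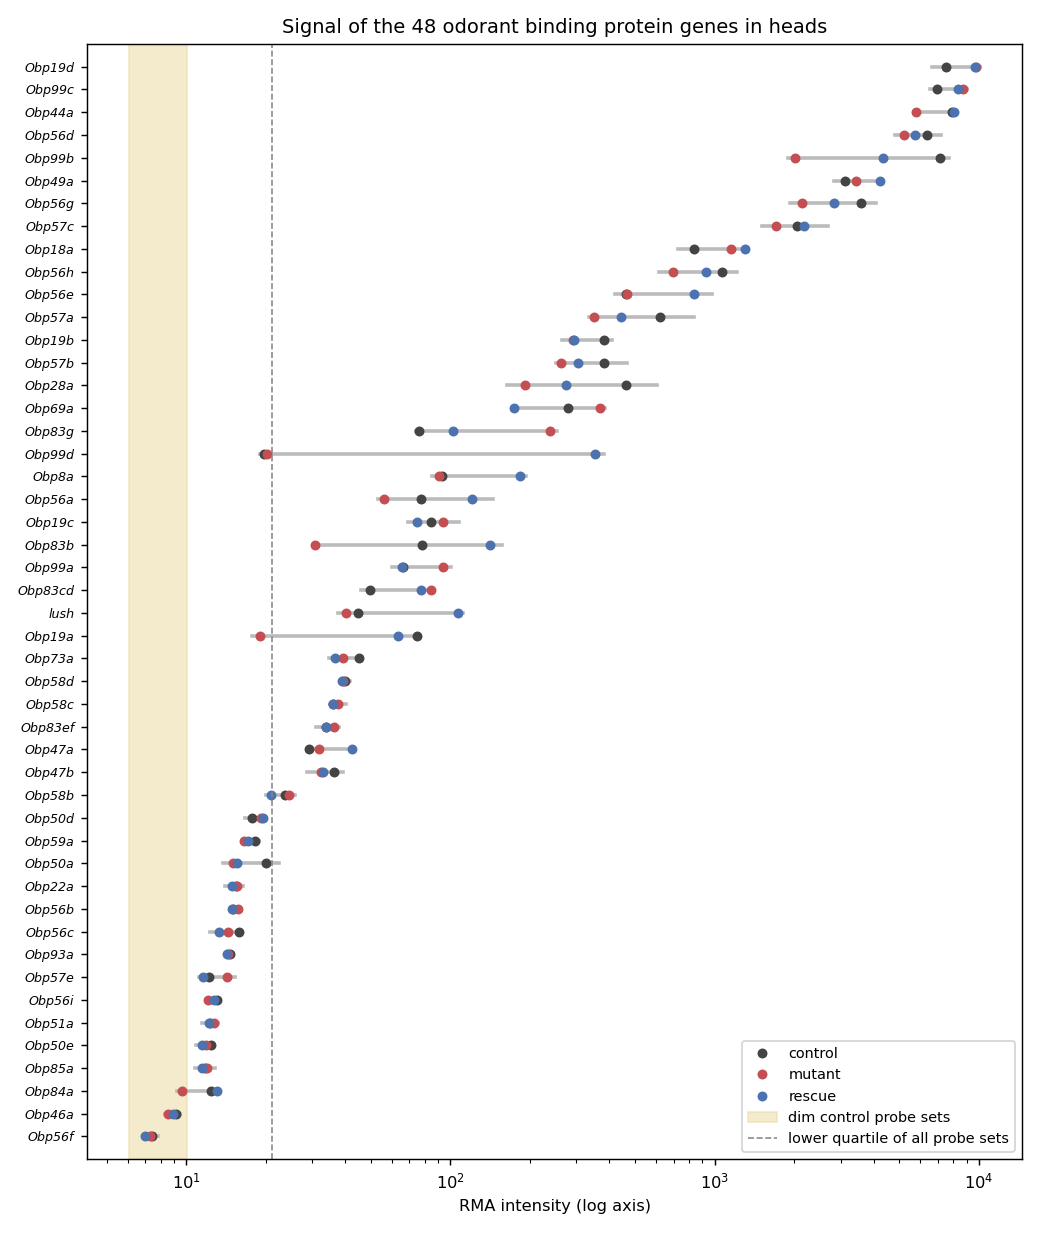
RMA intensity (log axis) of the 48 odorant binding protein genes, ordered by mean signal, with 1 gene per line. Points are geometric means of the 2 arrays of a group, grey lines run from the lowest to the highest of the 6 arrays, the band marks the dim TrpnX control probe sets and the dashed line the lower quartile of all probe sets. Signals run from about the dim controls (Obp56f, 7.0 to 7.8) to Obp19d (6658.7 to 10098.0), and the long lines belong to genes such as Obp99d, Obp83b, Obp19a and Obp99b.

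Of the 48 genes, 18 passed the threshold (limma, adjusted p under 0.05 over all probe sets) in at least 1 of the 3 comparisons and 30 in none. For all genes the number passing in at least 1 comparison was not counted, so the 18 cannot be set against a background. Between mutant and control, 3 members were higher (6.25%, against 9.21% of all genes) and 7 lower (14.6%, against 4.11%). Between rescue and mutant, 8 were higher (16.7%, against 0.818% of all genes) and 2 lower (4.17%, against 0.910%). Between rescue and control, 9 were higher (18.8%, against 8.91%) and 2 lower (4.17%, against 5.69%). The members' shares were thus above the background for genes lower in the mutant, for both directions from mutant to rescue (2 genes in the downward one) and for genes higher in rescue than in control, and below it for genes higher in the mutant and genes lower in rescue than in control. The last 2 of these turned with the setting, lying at or above the background without a mutant array or without 1 of the control arrays, whereas the other 4 lay above it without any 1 of the arrays and with a 5'/3' signal index as a covariate. The comparisons share arrays, so their counts are not independent of each other.

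The median log2 difference of the members was -0.039 between mutant and control, 0.038 between rescue and mutant and -0.041 between rescue and control, beside -0.003, -0.022 and -0.025 over all genes. Median sizes without sign were 0.188, 0.205 and 0.219, beside 0.147, 0.097 and 0.157. The signed medians thus lay close to those of all genes while the sizes without sign were larger, with single genes moving in both directions. The counts moved when 1 array was left out, as did the shares over all genes. Without control replicate 1, 7 members rose in the mutant (14.6%, against 14.4% of all genes) and 8 fell (16.7%, against 8.77%), and in the rescue 12 were above control (25%, against 15.3%) and 3 below (6.25%, against 12.5%). Without control replicate 2, 2 rose (4.17%, against 7.34%) and 10 fell (20.8%, against 3.54%) in the mutant, and 7 were above control (14.6%, against 6.18%) and 5 below (10.4%, against 3.52%) in the rescue. With the one or the other left out, 11 rose from mutant to rescue (22.9%, against 2.11%) and 3 fell (6.25%, against 2.05%). With a mutant array left out, 2 rose (4.17%, against 2.93% or 2.98%) and 3 fell (6.25%, against 1.23% or 1.08%) in the mutant, and 5 or 4 rose (10.4% or 8.33%, against 0.25% or 0.167%) and 1 fell (2.08%, against 0.125% or 0.108%) from mutant to rescue. The rescue was then above control for 6 members (12.5%, against 5.77%) and below it for 2 (4.17%, against 3.03%). With a rescue array left out, 2 rose (4.17%, against 5.09%) and 4 fell (8.33%, against 2.04%) in the mutant, and 4 rose (8.33%, against 0.2%) and 1 fell (2.08%, against 0.0668% or 0.0835%) from mutant to rescue. The rescue was then above control for 3 or 5 members (6.25% or 10.4%, against 2.45% or 2.12%) and below it for 0 (against 0.86% or 1.03%).

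The calls that held without any 1 of the 6 arrays were those of Obp19a, Obp83b, Obp83cd, Obp83g and Obp99b between mutant and control, of lush, Obp19a, Obp83b, Obp83g and Obp99d between rescue and mutant, and of lush, Obp8a and Obp99d between rescue and control.

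**Figure D2:**
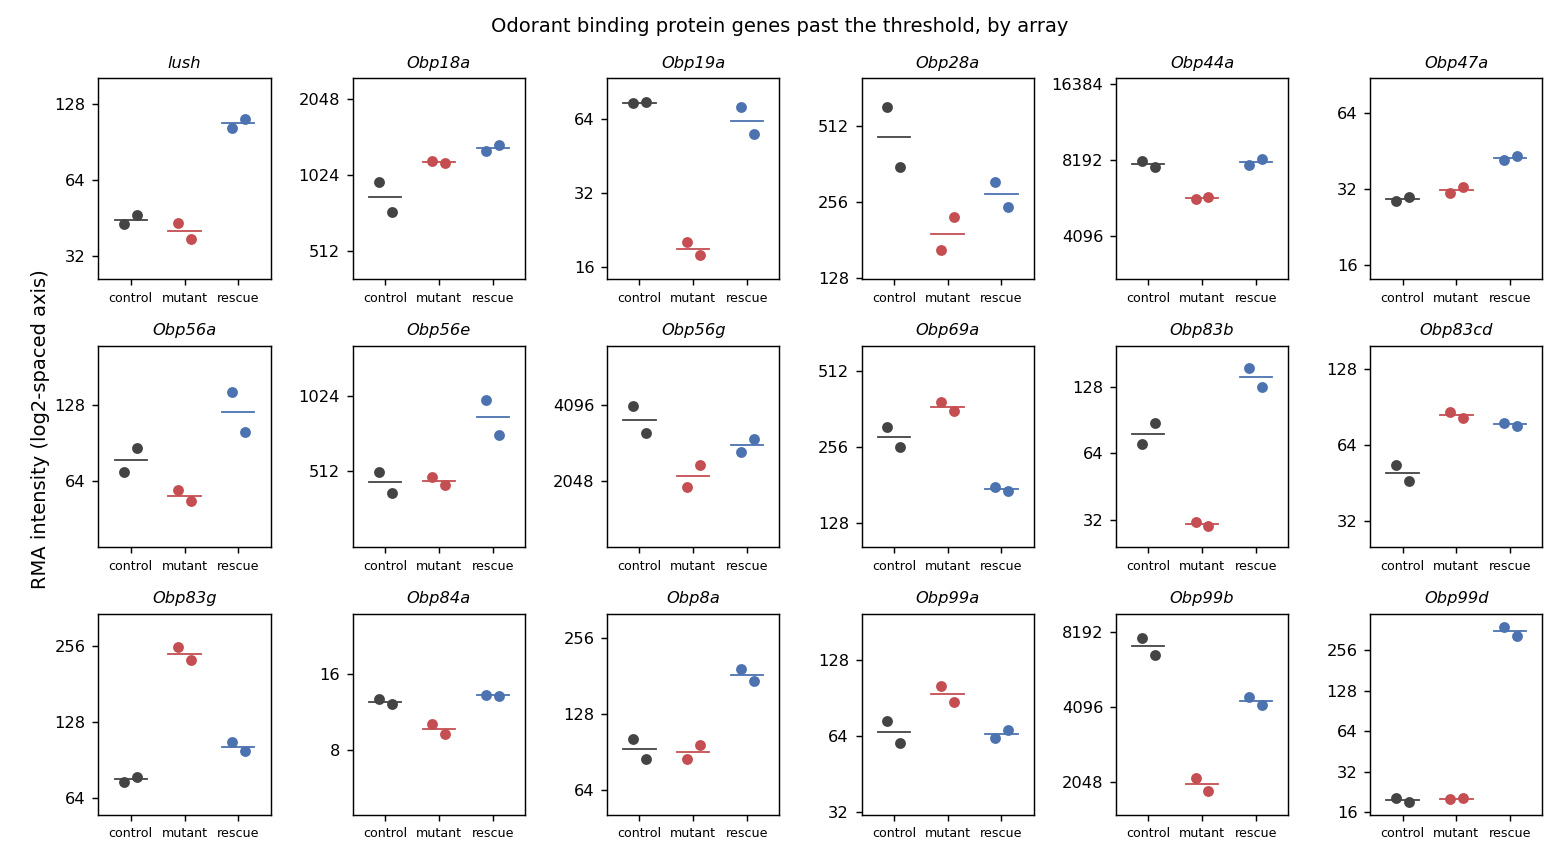
RMA intensity on each array (log2-spaced axis, a separate scale per gene) for the 18 odorant binding protein genes past the threshold in at least 1 comparison. Points are single arrays and bars the geometric mean of the 2 arrays of a group. Obp19a, Obp83b and Obp99b are low in the mutant, Obp83g is high there, and Obp99d and lush are high in the rescue alone.

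Among the odorant binding proteins abundant in the antenna, 9 of 10 were measured. None rose and 4 fell in the mutant (Obp19a, Obp28a, Obp83b and Obp84a), beside 9.21% and 4.11% of all genes. Between mutant and rescue 3 rose and 1 fell (beside 0.818% and 0.910%). In rescue against control 2 were higher and 1 lower (beside 8.91% and 5.69%). Obp19a read 74.4 and 75.2 on control arrays, 20.2 and 17.8 on mutant arrays and 71.8 and 55.7 on rescue arrays. Both mutant arrays lay far below the others and close to the lower quartile of the array, while control and rescue lay together. The fall in the mutant was 3.95-fold (-1.98 ± 0.13 SE on the log2 scale, adjusted p = 3.30e-04), and the rise from mutant to rescue was 3.34-fold (1.74 ± 0.13, adjusted p = 0.00224). Rescue and control differed by -0.24 ± 0.13 (adjusted p = 0.258). A second probe set of Obp19a, at 59.2 and 44.2, 23.7 and 24.8, and 47.6 and 43.2, had a smaller fall of 1.08 ± 0.14 on the log2 scale (adjusted p = 0.00473) and a rise of 0.90 ± 0.14 (adjusted p = 0.0334).

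Obp83b encodes OS-E, which shares trichoid and other sensilla with its neighbour OS-F and with LUSH. Its values were 70.3 and 87.5 on control arrays, 31.3 and 30.2 on mutant arrays and 156.4 and 127.6 on rescue arrays. The groups did not overlap, with the mutant lowest and the rescue above the control. Obp83b fell by 1.35 ± 0.14 in the mutant (adjusted p = 0.00172) and rose by 2.20 ± 0.14 from mutant to rescue, a 4.6-fold difference (adjusted p = 9.76e-04). Against control the rescue was 1.8-fold higher (0.85 ± 0.14, adjusted p = 0.011), which did not hold without rescue replicate 1 (0.70, adjusted p = 0.0897). Obp83a, which encodes OS-F, was not analysed here.

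The lush gene was brightest in the rescue. It read 42.7 and 46.5 on control arrays, 43.4 and 37.5 on mutant arrays and 103.2 and 111.6 on rescue arrays, where both arrays stood above all others. The mutant differed from control by -0.14 ± 0.10 (adjusted p = 0.405), and the rescue rose 2.66-fold against the mutant (1.41 ± 0.10, adjusted p = 0.00201) and 2.41-fold against control (1.27 ± 0.10, adjusted p = 7.60e-04).

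Obp69a, whose product is made in antennae and whose level responds to social exposure to cis-vaccenyl acetate, fell in the rescue. Its arrays read 306.6 and 255.5 on control arrays, 384.4 and 353.5 on mutant arrays and 177.8 and 170.9 on rescue arrays, with the rescue arrays lowest. It fell 2.11-fold from mutant to rescue (-1.08 ± 0.11, adjusted p = 0.00606) and 1.61-fold against control (-0.68 ± 0.11, adjusted p = 0.00984). The first call was lost when any 1 of the mutant or rescue arrays was left out (0.0662 to 0.0916 as adjusted p), and the second not without either rescue array (adjusted p = 0.0769 and 0.0931). The mutant differed from control by 0.40 ± 0.11 (adjusted p = 0.0612).

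Obp28a, an antennal binding protein of basiconic sensilla, read 607.3 and 353.2 on control arrays, 164.4 and 222.9 on mutant arrays and 307.0 and 244.3 on rescue arrays. The control arrays lay well apart from each other, and both lay above the other groups. The fall in the mutant (-1.27 ± 0.27, adjusted p = 0.0265) was lost with any 1 of the mutant or rescue arrays left out (0.059 to 0.162 as adjusted p) and held without either control array (0.0254 and 0.00458). Neither difference of the rescue passed (0.52 ± 0.27 against mutant, adjusted p = 0.477, and -0.76 ± 0.27 against control, adjusted p = 0.11). Obp84a, known from coeloconic sensilla, was dim, with its mutant values in the range of the TrpnX controls, at 12.7 and 12.1, 10.1 and 9.2, and 13.2 and 13.0 in the 3 groups. Its small fall in the mutant (-0.36 ± 0.083, adjusted p = 0.0364) was lost whichever of the 6 arrays was left out (adjusted p from 0.0522 to 0.21).

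The remaining antennal genes did not pass in any comparison. Obp19d, expressed in olfactory and taste sensilla, was bright at 8505.2 and 6658.7 on control arrays, 9460.4 and 10098.0 on mutant arrays and 9629.3 and 9645.1 on rescue arrays, and its mutant difference was 0.38 ± 0.12 (adjusted p = 0.1). Obp56d, also bright, read 7212.5 and 5621.9, 4817.6 and 5636.1, and 5685.3 and 5782.4, and its control arrays overlapped those of both other groups. Obp59a, which acts in humidity sensing, was at or below 18.8 on every array and may lie at the floor. The median log2 differences of the antennal members were -0.289 between mutant and control, 0.442 between rescue and mutant and -0.09 between rescue and control.

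**Figure D3:**
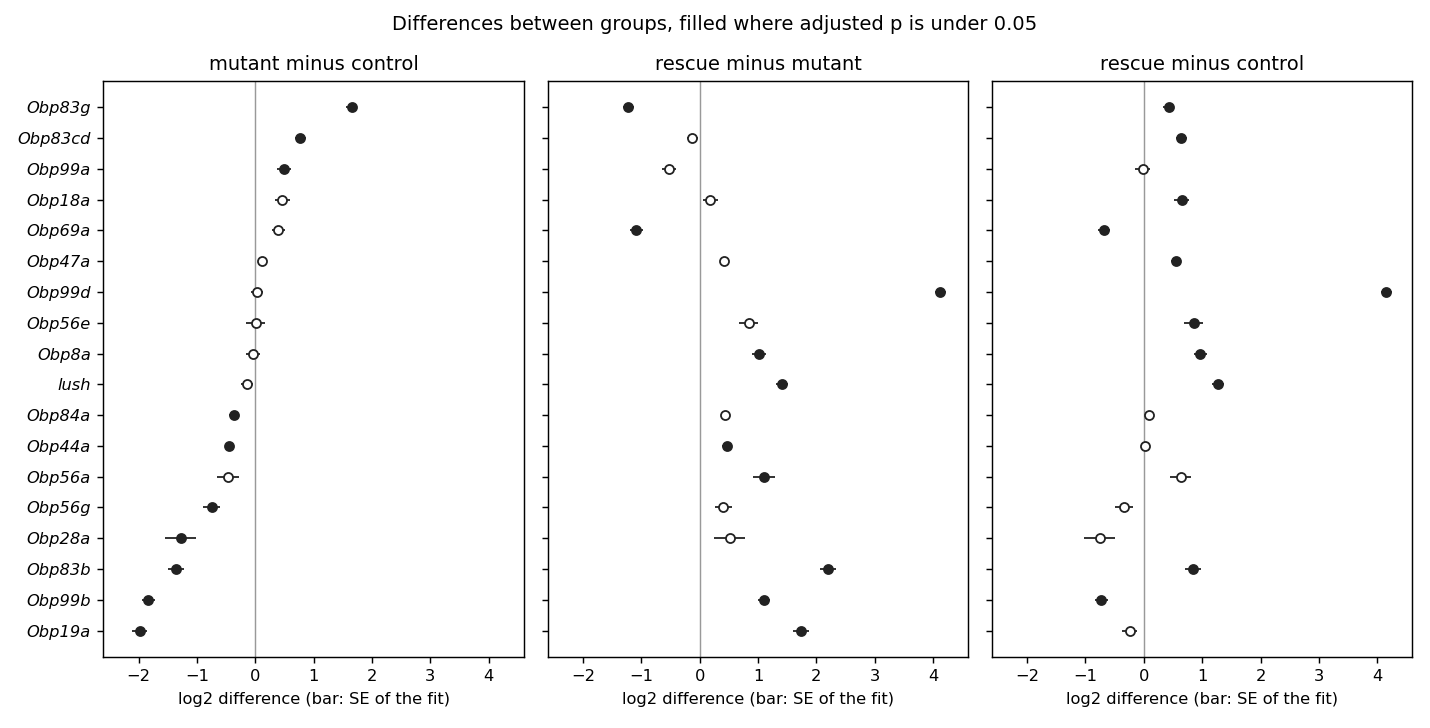
Log2 differences between groups (horizontal axis, bars are the standard error of the limma fit) for the 18 genes past the threshold in at least 1 comparison, ordered by the difference between mutant and control. Filled points passed at an adjusted p under 0.05. Obp19a, Obp99b and Obp83b lie to the left in the first panel and to the right in the second, Obp83g does the reverse, and Obp99d reaches 4.13 in the second panel and 4.15 in the third.

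The Minus-C class held the member with the largest difference. Of its 7 measured genes, 2 rose and 2 fell in the mutant (beside 9.21% and 4.11% of all genes). From mutant to rescue 4 rose and 1 fell (beside 0.818% and 0.910%). In rescue against control 3 were higher and 1 lower (beside 8.91% and 5.69%). The median log2 differences of the class were 0.03, 0.47 and 0.268 in these comparisons. Obp99d read 20.5 and 19.1 on control arrays and 19.9 and 20.5 on mutant arrays, at about the lower quartile of the array, against 379.9 and 327.0 with the rescue. Both rescue arrays stood far above the other 4, and the difference was 17.4-fold against mutant (4.13 ± 0.097, adjusted p = 9.53e-06) and 17.8-fold against control (4.15 ± 0.097, adjusted p = 4.53e-06). This size may be understated, as the other groups were so dim. With the strains not given, it cannot be told apart from a difference of strain or transgene in the rescue flies. Mutant and control differed by 0.03 ± 0.097 (adjusted p = 0.876).

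Obp99b, known also as tsx, is expressed in fat cells of the male head and differs between the sexes. It read 7707.3 and 6627.1 on control arrays, 2124.7 and 1897.8 on mutant arrays and 4471.8 and 4177.0 on rescue arrays. The groups did not overlap, and the rescue lay between the other groups. It fell 3.56-fold in the mutant (-1.83 ± 0.11, adjusted p = 1.85e-04), rose 2.15-fold from mutant to rescue (1.11 ± 0.11, adjusted p = 0.00564) and was 1.65-fold lower in rescue than in control (-0.73 ± 0.11, adjusted p = 0.00768). The rise was lost with mutant replicate 2 or a rescue array left out (0.0684 to 0.0838 as adjusted p), and the difference from control not without either rescue array (adjusted p = 0.0568 and 0.0796).

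Beside Obp99b, 9 of 11 fat body markers of the head were measured. Of these 2 fell in the mutant (against 4.11% of all genes) and 1 rose from mutant to rescue (against 0.818%). The gene fit, a sex-dependent fat body gene, fell by 2.29 ± 0.13 in the mutant (adjusted p = 1.85e-04), from 3564.6 and 2908.9 to 602.3 and 722.6, and read 965.4 and 1056.8 in the rescue (-1.67 ± 0.13 against control, adjusted p = 7.32e-04). Lsp2, a storage protein gene, fell by 0.76 ± 0.081 (adjusted p = 0.00215) and rose by 0.67 ± 0.081 in the rescue (adjusted p = 0.0129). The summed signal of the markers was 28181 to 31498 in control, 22992 to 23139 in mutant and 27242 to 28405 in rescue. The fall of this sum came from fit and Lsp2, the latter at 12693.3 and 12677.6 on control arrays and 7835.2 and 7134.1 on mutant arrays. The other 7 markers did not pass between mutant and control (limma). Among them apolpp, which encodes the main lipid carrier of the blood, differed by 0.14 ± 0.083 (adjusted p = 0.31). The part of these genes in the differences of Obp99b was not tested.

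Obp44a, a brightly read gene whose product is made by glia, changed by less. Its arrays read 8131.0 and 7676.4 on control arrays, 5742.0 and 5849.5 on mutant arrays and 7790.5 and 8273.7 on rescue arrays, and the mutant arrays lay below the overlapping others. The differences were -0.45 ± 0.079 in the mutant (adjusted p = 0.0154) and 0.47 ± 0.079 from mutant to rescue (adjusted p = 0.0448). The first was lost without either mutant array (adjusted p = 0.0945 and 0.107) and the second with any 1 of the mutant or rescue arrays left out (0.233 to 0.346). Of 5 glia markers 4 were measured, with a summed signal of 6357.8 to 6937 in control, 7025.4 to 7125.1 in mutant and 7242.3 to 7784.5 in rescue. Most of this sum was Gs2 (4745.2 to 5522.2), which did not pass in any comparison (limma). Nor did alrm, whose replicates lay apart (359.3 and 172.5 on control arrays, 266.4 and 467.6 on mutant arrays, 512 and 713.1 on rescue arrays). Another marker, moody, a receptor gene of the blood-brain barrier, rose by 0.64 ± 0.073 in the mutant (adjusted p = 0.00275). It was also above control in the rescue (0.56 ± 0.073, adjusted p = 0.00492). The glial identity gene repo did not pass (-0.26 ± 0.082 in the mutant, adjusted p = 0.0958). The part of these markers in the change of Obp44a was not tested.

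Obp83g was raised in the mutant and reduced in the rescue, the pattern the question names. It read 74.2 and 77.5 on control arrays, 252.5 and 224.4 on mutant arrays and 106.6 and 97.6 on rescue arrays, with no overlap between groups. It rose 3.14-fold in the mutant (1.65 ± 0.093, adjusted p = 1.67e-04) and fell 2.33-fold from mutant to rescue (-1.22 ± 0.093, adjusted p = 0.00224). The rescue stayed 1.34-fold above control (0.43 ± 0.093, adjusted p = 0.03), a call that held only without control replicate 1 when 1 array was left out (adjusted p from 0.0509 to 0.193 without each of the others). Obp99a read 73.1 and 60.3, 100.7 and 87.0, and 62.9 and 67.9, highest in the mutant. Its rise in the mutant (0.50 ± 0.12, adjusted p = 0.0457) was lost without any array but control replicate 1 (adjusted p from 0.0976 to 0.224), and its difference of -0.52 ± 0.12 between rescue and mutant did not pass (adjusted p = 0.112).

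Obp99c, the third bright gene of the class, read 7347.6 and 6550.5 on control arrays, 9058.6 and 8393.4 on mutant arrays and 8252.3 and 8453.7 on rescue arrays, and did not pass (0.33 ± 0.090 between mutant and control, adjusted p = 0.0637). Obp8a, a seminal fluid protein gene in males that was also read in these heads, was at 101.9 and 85.4, 84.9 and 96.4, and 192.9 and 173.0. Control and mutant overlapped, and the rescue was 2.02-fold above mutant (1.01 ± 0.12, adjusted p = 0.0115) and 1.96-fold above control (0.97 ± 0.12, adjusted p = 0.00389). The rise over mutant was lost with any 1 of the mutant or rescue arrays left out (0.0765 to 0.16 as adjusted p).

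Obp83cd and Obp83ef encode dimers, that is 2 binding domains in 1 protein. Obp83cd read 53.4 and 46.0 on control arrays, 86.8 and 82.1 on mutant arrays and 78.7 and 76.1 on rescue arrays. Both other groups lay above control. It rose 1.7-fold in the mutant (0.77 ± 0.095, adjusted p = 0.00389) and was 1.56-fold higher in the rescue than in control (0.64 ± 0.095, adjusted p = 0.00815, lost without either rescue array at 0.0684 and 0.0836). Rescue and mutant differed by -0.13 ± 0.095 (adjusted p = 0.654). Obp83ef, from 30.9 to 38.0, did not pass.

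Many genes named Obp56 and Obp57 are read from taste organs and mouthparts, among other tissues. Obp56g read 4072.9 and 3169.2 on control arrays, 1932.3 and 2370.0 on mutant arrays and 2680.6 and 3006.1 on rescue arrays. It fell 1.68-fold in the mutant (-0.75 ± 0.15, adjusted p = 0.0237), a call lost with any 1 of the mutant or rescue arrays left out (0.0578 to 0.147 as adjusted p). Obp56h, a gene whose level alters mating behaviour of males, read 1215.3 and 931.6, 614.7 and 794.4, and 928.5 and 930.1, and its difference of -0.61 ± 0.16 did not pass (adjusted p = 0.0571). Obp56a read 69.8 and 86.5, 59.2 and 53.2, and 144.5 and 100.3, highest in the rescue. Its 2.15-fold rise from mutant to rescue (1.10 ± 0.18, adjusted p = 0.0434) was lost in the same way (0.0652 to 0.263). Obp56e read 511.6 and 420.2, 484.6 and 450.6, and 981.5 and 716.9. It was 1.81-fold higher in rescue than in control (0.86 ± 0.16, adjusted p = 0.0192), which was lost without control replicate 2, either mutant array or rescue replicate 1 (adjusted p from 0.0509 to 0.106). Against mutant its difference of 0.84 ± 0.16 did not pass (adjusted p = 0.0665).

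Some Obp57 genes differed between the control arrays. Obp57a read 838.0 and 458.6 on control arrays, 335.2 and 366.5 on mutant arrays and 432.7 and 450.5 on rescue arrays, and Obp57c 2681.4 and 1577.6, 1516.5 and 1936.4, and 2113.7 and 2245.5. Together with Obp28a these were the 3 of 48 members at least 1.5-fold apart between the control replicates, beside 2.55% of all genes. All 3 were higher on control replicate 1 than on replicate 2, which had the lowest ratios of 5' to 3' control signal. No member was that far apart in mutant or rescue, beside 0.634% and 0.2% of all genes. At such low shares the absence of members there cannot be told apart from the background. No Obp57 gene passed (Obp57a -0.82 ± 0.25 between mutant and control, adjusted p = 0.0829, and Obp57b -0.54 ± 0.18, adjusted p = 0.1). Once the 5'/3' index was a covariate, Obp57a (-1.08, adjusted p = 0.00193), Obp57b (-0.73, adjusted p = 0.00299) and Obp57c (-0.53, adjusted p = 0.00677) were lower in the mutant, as were Obp56d (-0.42, adjusted p = 0.0145), Obp56h (-0.76, adjusted p = 0.00284) and Obp19b (-0.49, adjusted p = 0.0132). The count of members lower in the mutant was then 13 (27.1%, against 5.76% of all genes in that fit) and that of members lower in rescue than in control 9 (18.8%, against 2.2%). The index was furthest apart on the control arrays (-1.455 and -2.342) and highest on the rescue arrays (-1.255 and -1.057). Its effect therefore rests largely on the control pair and cannot be fully told apart from that of the groups. Calls lost with the covariate were those of Obp99a between mutant and control (adjusted p = 0.0577), Obp44a between rescue and mutant (0.0612), and Obp18a (0.139), Obp56e (0.121) and Obp83cd (0.056) between rescue and control, where Obp56a was gained (0.0466).

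Of 4 taste organ genes 3 were measured, and none passed in any comparison, where from 0.818% to 9.21% of all genes passed in a given direction. With so few genes this cannot show that taste organ genes were unaffected. Obp49a, whose product lets bitter compounds suppress the response to sugar, read 3459.6 and 2829.2 on control arrays, 3152.0 and 3726.1 on mutant arrays and 4241.3 and 4198.9 on rescue arrays (0.43 ± 0.12 between rescue and control, adjusted p = 0.0677). Obp19b ranged from 265.0 to 408.3 and Obp57e from 11.2 to 15.3, where it may lie at the floor. Outside these groups, Obp18a read 954.3 and 726.5, 1160.7 and 1137.9, and 1274.4 and 1339.7, and was 1.57-fold higher in rescue than in control (0.65 ± 0.13, adjusted p = 0.0221). This call was lost with any 1 of the mutant or rescue arrays left out (0.0577 to 0.156 as adjusted p) and with the covariate (0.40, adjusted p = 0.139). Obp47a read 28.7 and 29.7, 30.8 and 32.8, and 41.9 and 43.2, and its 1.46-fold difference between rescue and control (0.54 ± 0.078, adjusted p = 0.00735) did not hold without either rescue array (adjusted p = 0.0665 and 0.0793).

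Genes of the male reproductive tract served as a check of what the head samples hold. Of the 7 binding protein genes known from seminal fluid, Obp22a, Obp51a, Obp56f and Obp56i stayed between 7.0 and 16.4 on every array, whereas Obp56g, Obp56e and Obp8a were read well above that level. Of 14 measured markers of the accessory gland and ejaculatory bulb, 13 were below the median probe set, with Acp26Aa from 7.5 to 8.9 and Acp36DE from 10.9 to 14.5. The exception, EbpIII, read from 7458.3 to 11050.1. None of the 14 passed in any comparison (limma), where from 0.818% to 9.21% of all genes passed in a given direction. As 10 of the 14 were below the lower quartile, a change could be missed. At an unadjusted p under 0.05 (limma), 1 was higher and 2 lower between mutant and control. None was between rescue and mutant, and 2 were higher between rescue and control. The share of all genes at that unadjusted level was not counted.

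Plus-C genes were largely dim in these heads. Of 11 measured, 10 stayed at or below 50 on every array, Obp49a being the exception. None of the 11 passed in any comparison (limma), where from 0.818% to 9.21% of all genes passed in a given direction. With 11 genes this cannot be told apart from the background. At an unadjusted p under 0.05 (limma), 1 was lower between mutant and control, and 1 was higher and 1 lower in each of the others. The share of all genes at that unadjusted level was not counted. Across the whole family, 20 of the 30 genes that passed in no comparison stayed at or below 50, among them Obp46a (8.3 to 9.5), Obp85a (10.8 to 12.9), Obp93a (14.0 to 15.0), Obp56b (14.6 to 15.9), Obp50d (16.7 to 20.0), Obp58d (38.1 to 41.8) and Obp73a (34.8 to 45.9). At this signal a change could be missed, so these genes cannot be called unaffected. The other 10 lay above it, from Obp19c (69.1 to 108.1) upward.

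Binding protein genes lie in runs along the chromosomes. By their order in the Release 6 plus ISO1 MT assembly, 35 of 52 such genes lay within 5 genes of another, in 10 runs, and 31 of them were measured. Differences varied within a run. In the run of Obp99c, Obp99d and Obp99b, Obp99b had a difference of -1.83 between mutant and control, Obp99d of 0.03 and Obp99c of 0.33, and between rescue and mutant they had 1.11, 4.13 and -0.06. In the run of Obp19a to Obp19d, Obp19a passed in both comparisons, while Obp19b, Obp19c and Obp19d did not pass, with 0.01, -0.32 and -0.02 between rescue and mutant. Obp83cd and Obp83g both rose in the mutant while Obp83ef between them had a difference of 0.11 (adjusted p = 0.541). The measured members of the Obp50 and Obp58 to Obp59a runs did not pass in any comparison. They read from 10.9 to 41.8, where a change could be missed.

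**Figure D4:**
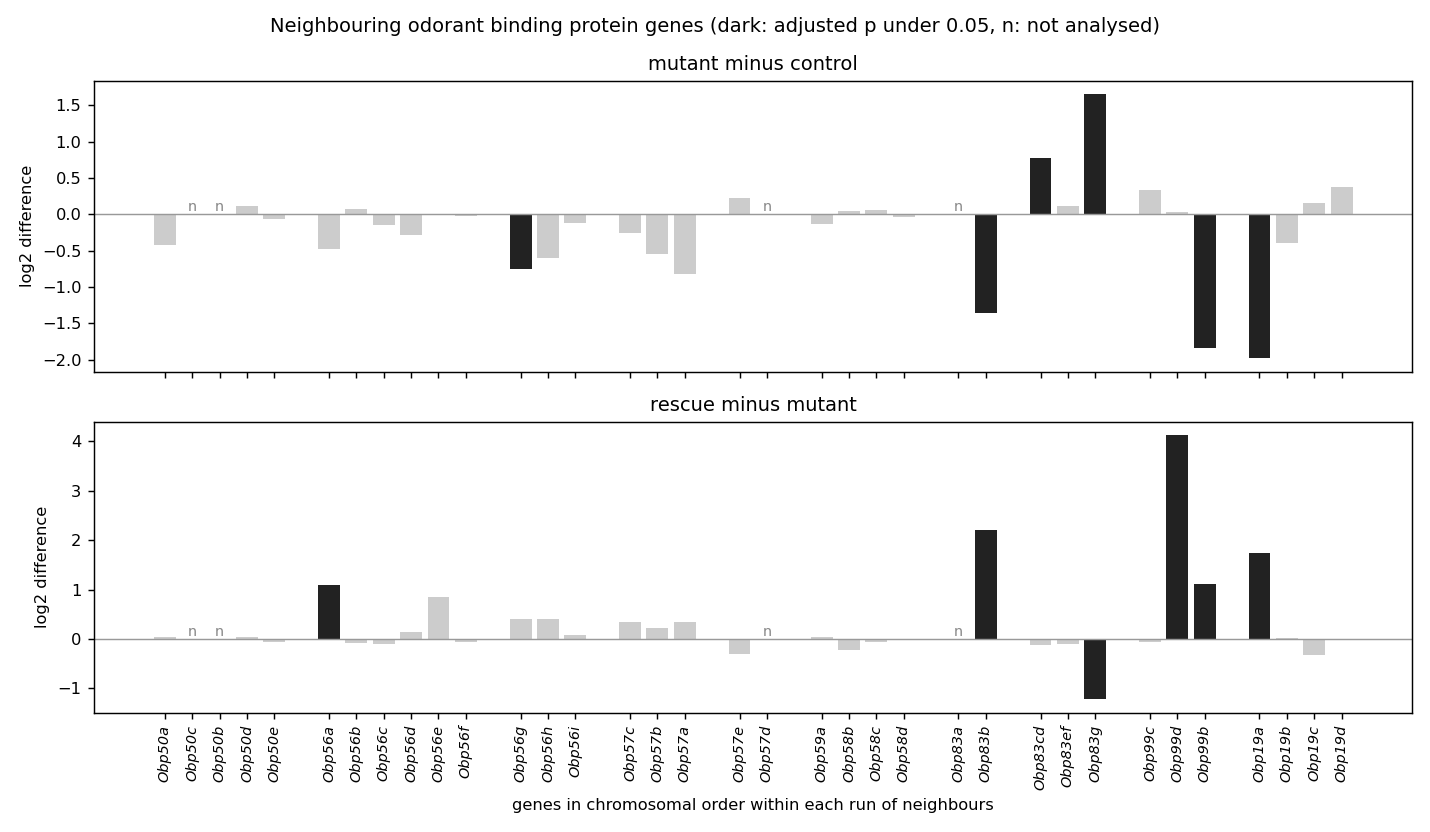
Log2 differences (vertical axis) of neighbouring odorant binding protein genes, in chromosomal order within each of 10 runs, for mutant minus control (top) and rescue minus mutant (bottom). Dark bars passed at an adjusted p under 0.05, grey bars did not, and n marks genes not analysed. Single genes stand out within a run, such as Obp99d at 4.13 beside Obp99c at -0.06.

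Other genes of the olfactory system were read on the same arrays. Of 13 antennal genes outside the family 12 were measured, and between mutant and control 4 fell and 1 rose (beside 4.11% and 9.21% of all genes). Os-C, which encodes another protein of olfactory hairs, read 61.9 and 82.7 on control arrays, 26.1 and 32.2 on mutant arrays and 123.3 and 119.4 on rescue arrays, lowest in the mutant and highest in the rescue. It fell by 1.30 ± 0.16 (adjusted p = 0.00332) and rose by 2.07 ± 0.16 in the rescue (adjusted p = 0.00224). The antennal protein gene a5 fell by 0.56 ± 0.083 (adjusted p = 0.00771) and rose by 0.77 ± 0.083 (adjusted p = 0.00853). Jhedup, an esterase gene, fell by 2.28 ± 0.24 (adjusted p = 0.00218) and Orco, the co-receptor of odorant receptors, by 0.93 ± 0.12 (adjusted p = 0.00495), and neither passed between rescue and mutant (0.91 ± 0.24, adjusted p = 0.158, and 0.13 ± 0.12, adjusted p = 0.735). Ir25a, a co-receptor of ionotropic receptors, rose by 0.41 ± 0.081 (adjusted p = 0.0215), and Snmp1, needed for pheromone detection, had a difference of 0.22 ± 0.078 (adjusted p = 0.125).

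The summed signal of the 12 antennal genes was 815.4 to 879.7 in control, 663.8 to 673.5 in mutant and 860.6 to 871.5 in rescue heads, so the mutant was lowest. Much of the fall came from Jhedup, at 203 and 113.1 on control arrays and 31 and 31.6 on mutant arrays. The similar sums of rescue and control did not mean that each gene returned. Between these groups 3 were higher and 2 lower (limma, against 8.91% and 5.69% of all genes). Higher were a10 (0.79 ± 0.12, adjusted p = 0.00863), Os-C (0.76 ± 0.16, adjusted p = 0.0243) and Ir25a (0.35 ± 0.081, adjusted p = 0.0351). Lower were Jhedup (-1.36 ± 0.24, adjusted p = 0.0157) and Orco (-0.81 ± 0.12, adjusted p = 0.00895). The median log2 difference of the list was -0.065 between mutant and control, 0.124 between rescue and mutant and 0.097 between rescue and control, and 7 of the 12 genes did not pass in the first of these. The antennal genes' part in the differences of the binding protein genes was not tested. Of 57 odorant receptor genes, 2 rose and 7 fell in the mutant (beside 9.21% and 4.11% of all genes). Those that rose were Or45b (5.50 ± 0.15, adjusted p = 7.30e-06) and Or49b (0.87 ± 0.074, adjusted p = 8.43e-04). Or45b read 56.8 and 40.5 on control arrays and 2240.2 and 2103.7 on mutant arrays. Both were also above control in the rescue (5.27 ± 0.15, adjusted p = 8.75e-06, and 0.92 ± 0.074, adjusted p = 7.60e-04). From mutant to rescue 1 rose (beside 0.818%), Or63a (0.93 ± 0.11, adjusted p = 0.0108), which was among the 7 that fell (-0.57 ± 0.11, adjusted p = 0.0181). In all, 52 of the 57 were below the median probe set, which limits what could be detected. Of 53 ionotropic receptor genes 1 rose and 1 fell in the mutant (beside the same 9.21% and 4.11%), and 2 rose and 1 fell from mutant to rescue (beside 0.818% and 0.910%).

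**Figure D5:**
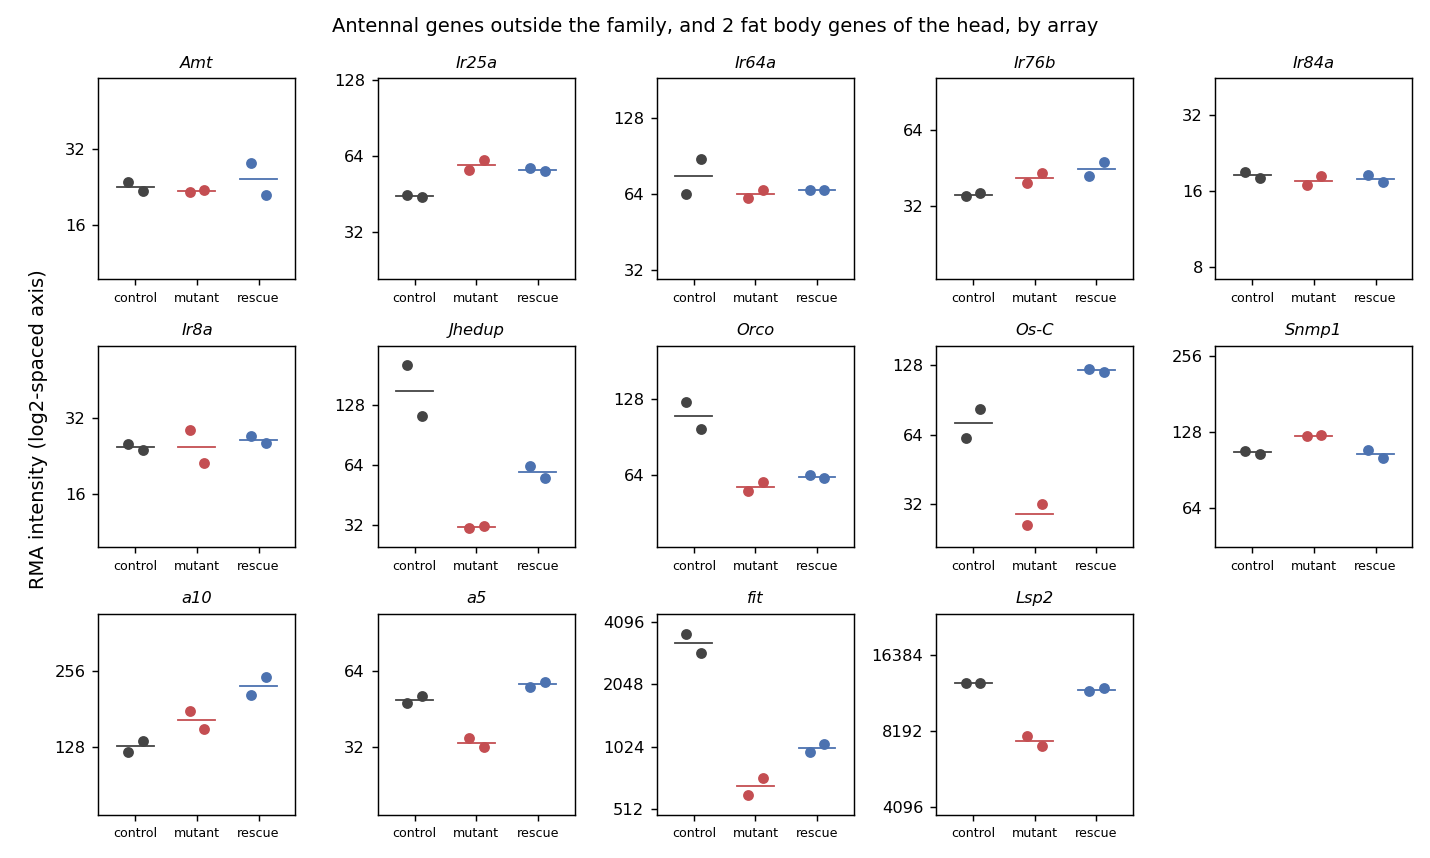
RMA intensity on each array (log2-spaced axis, a separate scale per gene) for the 12 measured antennal genes outside the odorant binding protein family, and for fit and Lsp2, genes of the head fat body. Points are single arrays and bars the geometric mean of the 2 arrays of a group. Os-C and a5 are lowest in the mutant and highest in the rescue, Orco and Jhedup are highest in control, and Ir84a, Ir8a and Amt differ little.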

How the data were processed

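Total RNA of heads was hybridised to Affymetrix arrays. The deposited values are linear RMA intensities, 1 for each probe set on each array, per the submitters' processing notes (version not given in the sources used here). RMA scales arrays to 1 distribution, which removes changes shared by all transcripts and compresses dim values. All columns were used.

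Of 18952 probe sets, 183 controls were left out. Among the 18769 tested, 13647 had 1 symbol, 402 several and 4720 none. Of the 1-symbol identifiers 13544 matched the gene table of Release 6 plus ISO1 MT, which changed 0 symbols. Older names of the Obp57 and Obp99 genes were interchanged, and genes were matched by identifier. The members had 51 probe sets, and the brightest of each gene was kept (3 genes had 2).

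Log2 intensities were fitted in R 4.3.3 with limma 3.58.1 (lmFit, then eBayes, 3 groups, all 6 arrays, 3 residual and 4 prior degrees of freedom, two-sided, Benjamini-Hochberg over all probe sets tested, threshold 0.05), after the script was tested on simulated data. A permutation test of 2 against 2 arrays cannot go below 0.333. Values on all arrays are given for members past the threshold and for the brightest 10, and of other genes only defining markers or those past the threshold are named, with Ir84a, Ir8a and Amt added after their values were seen. Members and lists were chosen with earlier results of these data known. Alternatives were single arrays left out, the replicate number as a block, only the groups compared, a filter on dim probe sets, log2(intensity + 16), median centring, cyclic loess, an intensity trend, array weights, the mean log2 5' to 3' ratio of actin and GAPDH as a covariate, and the other probe set of a gene.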

Additional observations from a re-analysis of the deposited data

How the results depend on the processing

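With 2 arrays per group, 1 array left out leaves a group with 1 array, which is assumed to vary like the others. The numbers of binding protein genes higher and lower then ranged from 2 to 7 and 3 to 10 (mutant against control, with 2.93% to 14.4% of all genes higher and 1.08% to 8.77% lower), 4 to 11 and 1 to 3 (rescue against mutant, 0.167% to 2.11% and 0.0668% to 2.05%), and 3 to 12 and 0 to 5 (rescue against control, 2.12% to 15.3% and 0.86% to 12.5%). The members' share higher in the mutant, below that of all genes as reported, was above it without control replicate 1 or either mutant array and with only brighter probe sets tested (20% against 16.2%). Their share lower in rescue than in control was above it without control replicate 2 or either mutant array, with the block (4.17% against 3.19%), with only the groups compared in the fit (4.17% against 3.03%) and with the covariate. The other 4 shares stayed above that of all genes under each alternative in which all genes were refitted. The number lower in the mutant was 4 with the replicate block, 4 when the rescue arrays were left out of the fit, and 13 when the 5'/3' index was a covariate. The number higher in the mutant was 5 when only probe sets above the median were tested, which adjusts over fewer tests and adds Obp69a (adjusted p = 0.0472) and Obp99c (adjusted p = 0.0435). The number lower in rescue than in control was 9 with the covariate, under which Obp57c turned from 0.083 to -0.53 (adjusted p = 0.036), and the cause was not tested. Every other count under an alternative other than leaving out an array was within 1.5 times the reported one. Median centring and cyclic loess moved no member by more than 0.0945 on the log2 scale. The labels do not say that a replicate number marks shared animals or batches. Deviations of replicate 1 from the group mean correlated, across probe sets, at -0.255 between control and mutant, -0.188 between control and rescue and 0.00356 between mutant and rescue. These values cannot decide whether a number marks a batch, since the 5'/3' index also differed between replicates. From replicate 1 to 2 it went from -1.455 to -2.342 in control and from -1.81 to -1.35 in mutant. Under the replicate block Obp28a (adjusted p = 0.0509), Obp56g (0.0582), Obp84a (0.0659) and Obp99a (0.0706) did not pass between mutant and control, nor did Obp83g between rescue and control (0.0573) or Obp44a (0.119) and Obp56a (0.0987) between rescue and mutant, where Obp56e passed (0.0456).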

Other observations

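Another 4 probe sets name a binding protein gene together with another gene and were left out above. Of the 2 shared by Obp57d and the cuticle protein gene Cpr57A, 1 read 56.8 and 64.2 on control arrays, 83.8 and 96.6 on mutant arrays and 89.3 and 93.4 on rescue arrays. It was higher in the mutant by 0.58 ± 0.10 on the log2 scale (limma, adjusted p = 0.0162) and in the rescue by 0.60 ± 0.10 (adjusted p = 0.0142). The other read 418.1 and 330.0, 389.0 and 467.3, and 511.8 and 502.5 and did not pass (0.20 ± 0.14, adjusted p = 0.389, and 0.45 ± 0.14, adjusted p = 0.0778). The 2 shared by Obp50b and Obp50c ranged from 49.0 to 85.2 and did not pass in any comparison. Which gene of each pair gave the signal was not tested.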
